A study of Mus musculus with 22 samples.

Results

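Hepatic mRNA levels of 10 genes of the mitochondrial biogenesis programme were followed in Cre and liver-Flcn-/- mice: Ppargc1a, Ppargc1b, Tfam, Nrf1, Gabpa, Tfb2m, Polg, Sirt3, Ucp2 and Opa1. They were taken by exact symbol from a table of 55573 genes, and all 10 were among the 14062 genes tested. The mRNA of 22 mouse livers was sequenced to ask what loss of the tumor suppressor folliculin does in liver on a control diet and on a diet that causes steatohepatitis. The libraries held 13751347 to 21144388 counts on genes.

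All mice were C57BL/6 and were put on their diet at 6 weeks of age. Control mice (Cre) were Flcn WT/WT and Albumin-cre+/-. Liver-Flcn-/- mice carried Flcn f/f with Albumin-Cre, so both genotypes carried the Cre transgene. The Albumin promoter drives Cre in hepatocytes. The other cells of the liver are taken here to keep an intact Flcn, which was not tested. The chow diet held 10 kcal percent fat, and the methionine and choline deficient (MCD) diet was given for 6 weeks. There were 6 Cre livers on chow, 5 Cre livers on MCD, 5 liver-Flcn-/- livers on chow and 6 liver-Flcn-/- livers on MCD. A liver is named here by genotype, diet and number, as in Cre MCD 3.

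PGC-1 alpha and PGC-1 beta are coactivators without a DNA-binding domain of their own. They are recruited by nuclear respiratory factor 1 (NRF1), the ETS-family factor GABP and the estrogen-related receptors, which bind promoters of nuclear genes for mitochondrial proteins. Among those proteins are TFAM and TFB2M, which start transcription of mitochondrial DNA, and POLG, the catalytic subunit of the polymerase that copies it. In liver PGC-1 alpha is known as a coactivator of the fasting response, folliculin as a partner of the energy sensor AMPK, and loss of folliculin has been linked to PGC-1 alpha in other tissues.

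The promoters of the 5 members that fell in Cre mice on MCD are shown first, since 4 of the 5 share a motif. For Tfam, Gabpa and Polg the sign of that fall depends on how the libraries are scaled, as given with their values. Of the 10 members 9 had a promoter in the RefSeq table used (GRCm38.p6). The 250 bases before the start that RefSeq gives are printed 5′ to 3′ on the strand of the gene, with chr7:79466274-79466523 on the minus strand for Polg, chr7:140882310-140882559 minus for Sirt3, chr10:71238045-71238294 minus for Tfam, chr16:84834874-84835123 plus for Gabpa and chr16:29579084-29579333 plus for Opa1. Capitals mark the ETS letters CCGGAAG on either strand or, in Opa1, the NRF1 letters GCGCATGC, which overlap there with their own reverse complement. The gene spans given further on are those of GENCODE, whose outermost starts for Tfam, Polg and Gabpa lie upstream of the marked letters, so by that annotation those letters are inside the genes.
Tfam: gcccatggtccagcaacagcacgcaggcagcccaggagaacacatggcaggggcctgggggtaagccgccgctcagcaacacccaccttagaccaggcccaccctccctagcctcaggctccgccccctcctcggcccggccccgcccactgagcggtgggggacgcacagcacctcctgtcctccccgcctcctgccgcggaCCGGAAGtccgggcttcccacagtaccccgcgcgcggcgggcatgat
Polg: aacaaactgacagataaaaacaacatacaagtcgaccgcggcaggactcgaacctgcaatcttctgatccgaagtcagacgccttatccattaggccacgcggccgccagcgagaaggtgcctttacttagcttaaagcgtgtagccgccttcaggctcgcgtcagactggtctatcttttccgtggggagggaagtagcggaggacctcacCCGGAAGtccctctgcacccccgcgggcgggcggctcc
Sirt3: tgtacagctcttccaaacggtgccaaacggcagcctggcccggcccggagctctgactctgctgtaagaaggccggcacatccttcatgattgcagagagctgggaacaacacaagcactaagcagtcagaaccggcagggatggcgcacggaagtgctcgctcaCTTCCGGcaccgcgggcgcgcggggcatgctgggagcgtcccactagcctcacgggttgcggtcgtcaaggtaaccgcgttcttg
Gabpa: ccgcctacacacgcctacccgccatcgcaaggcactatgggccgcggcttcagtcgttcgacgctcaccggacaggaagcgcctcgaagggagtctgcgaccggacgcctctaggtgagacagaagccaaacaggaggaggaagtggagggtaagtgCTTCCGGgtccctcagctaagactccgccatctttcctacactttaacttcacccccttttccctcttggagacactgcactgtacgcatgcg
Opa1: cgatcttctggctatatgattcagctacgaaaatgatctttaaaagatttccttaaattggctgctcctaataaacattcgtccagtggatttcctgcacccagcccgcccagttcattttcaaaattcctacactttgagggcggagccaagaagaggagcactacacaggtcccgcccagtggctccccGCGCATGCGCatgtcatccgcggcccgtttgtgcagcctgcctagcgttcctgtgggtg

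Within 300-base windows, from 250 bases before to 50 after the start and on both strands, CCGGAAG was held by 8.86% of all 32851 promoters in the table, and among the members by Tfam, Polg, Gabpa and 1 of the 2 Sirt3 entries. GCGCATGC was held by 2.71% of promoters and, among the members, by Opa1 and Tfb2m. Ppargc1a, Ucp2 and Nrf1 held none of the letters searched, which also included the estrogen-related receptor element TCAAGGTCA (0.423% of promoters), the cAMP element TGACGTCA (1.79%) and the E-box CACGTG (7.15%). These matches describe letters in a window, not binding, and the motifs were picked with the expression results known.

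Flcn itself was checked first in every liver, in CPM (the count of a gene set to a common library size, with library sizes scaled by edgeR's TMM factors). Cre chow livers held 26.1 to 40.1 CPM (median 31.7, n = 6) and the 5 liver-Flcn-/- chow livers held 24.2, 19.9, 16.7, 19.4 and 21.7 CPM. On chow the genotypes did not overlap, and Flcn was lower in liver-Flcn-/- mice by a log2 difference of -0.63 (SE 0.17, edgeR adjusted p = 0.0249). That call was lost without Cre chow 6 (log2 -0.56, adjusted p = 0.0567), liver-Flcn-/- chow 3 (log2 -0.57) or liver-Flcn-/- chow 4 (-0.62, adjusted p = 0.0679), and also with the replicate number as a block, with library totals and without the 5 chow libraries of low mapping share described below. On MCD the 5 Cre livers held 31.7, 18.2, 39.8, 32.4 and 23.6 CPM against 17.6 to 32.6 CPM in 6 liver-Flcn-/- livers, and the groups overlapped (log2 -0.16, SE 0.17, edgeR adjusted p = 0.567). The counts are of the whole gene (chr11:59791408-59810016, GRCm38, minus strand), of which Cre removes only a part. Cells other than hepatocytes are taken to keep the gene, so Flcn mRNA is a weak check of the labels. The tissue label was met by every library: 8 hepatocyte genes, led by Alb, summed to 62889 to 161206 CPM.

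One liver stood apart. Cre MCD 3 held 5358 counts of the muscle creatine kinase gene Ckm, where the other 21 livers held 0 to 254. The sum of 10 skeletal muscle genes in it was 3230.89 CPM, against medians of 1.32 to 20.1 CPM in the 4 groups. The next highest sums were 156 CPM in Cre MCD 4 and 72.8 CPM in liver-Flcn-/- MCD 3. Ppargc1a is abundant in muscle, so each Ppargc1a test that compares Cre mice on MCD is given with and without this liver. The labels state no sex. In 10 livers Y-linked genes outnumbered Xist (1906 to 4321 counts against 0 to 19) and in 12 Xist was in the majority (5411 to 7573 counts), in 3 and 3, 2 and 3, 2 and 3, and 3 and 3 livers of Cre chow, Cre MCD, liver-Flcn-/- chow and liver-Flcn-/- MCD. The 5 chow libraries with the lowest share of uniquely mapped reads were exactly the chow livers in which Y-linked RNA outnumbered Xist, so on chow sex and mapping cannot be told apart. Of the 12 livers with more Xist, 11 also held Y-linked counts, from 3 to 675, with the most in Cre MCD 1 (675) and liver-Flcn-/- chow 2 (451). The source of these counts was not tested, and the groups by sex below rest on the majority.

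Of the 10 members, 3 rose and 5 fell in Cre mice on MCD, where 57.5% of all genes tested changed (29.3% rose and 28.2% fell). When libraries are scaled by their totals alone, 6 members rose and 2 fell, where 7896 of the 14062 genes rose and 1752 fell. With that scaling Nrf1, Tfb2m and Tfam join the 3 that rose, and Gabpa and Polg are not called. With the liver-Flcn-/- genotype the same diet raised 4 members and lowered 2, where 45% of all genes changed (22.5% each way). With library totals it raised 6 members and lowered 0, where 5800 of the 14062 genes rose and 1733 fell. Between genotypes on chow, 1 member differed (higher in liver-Flcn-/-), where 8.62% of all genes did (5.52% higher, 3.1% lower). On MCD, 5 members were higher and 1 was lower in liver-Flcn-/- mice, where 16.6% of all genes differed (8.06% higher, 8.53% lower). The diet response itself differed between genotypes (an interaction term) in 5 members, 4 of them upward and 1 downward, where 8.83% of all genes did (3.29% and 5.54%). In Cre mice 5 members (Gabpa, Polg, Sirt3, Ucp2 and Opa1) held chow and MCD livers that did not overlap, as did 32.5% of all genes, and in liver-Flcn-/- mice 1 did (Ppargc1a), as did 29.2%. The genotypes overlapped on chow for all 10 members, where 6.94% of all genes did not, and on MCD for all but Polg. A call here is a Benjamini-Hochberg adjusted p under 0.05 over all genes tested, from edgeR's quasi-likelihood test. The median log2 difference of the members was -0.10 and 0.11 for diet in Cre and liver-Flcn-/- mice and -0.06 and 0.24 for genotype on chow and MCD, where the median of all genes tested was 0.01, 0.00, -0.03 and -0.01. The 4 comparisons share groups, so their counts are not independent of each other.

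**Figure D1:**
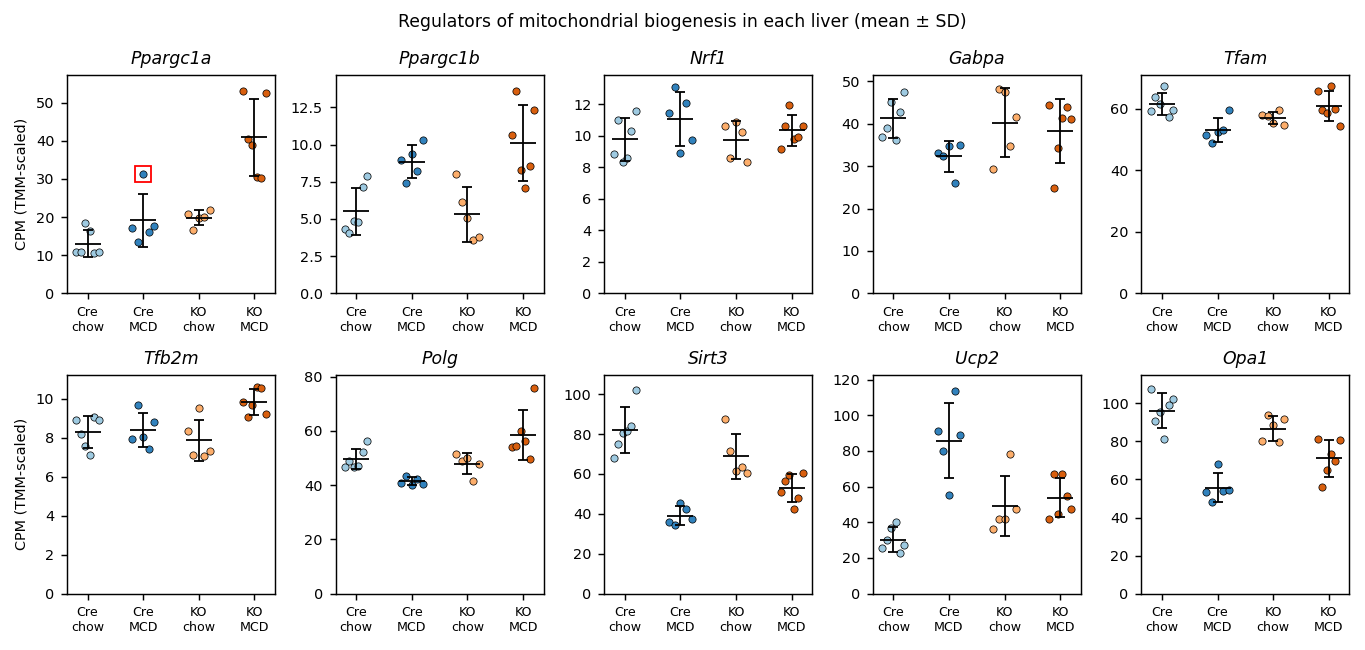
Normalised level (CPM, linear axis from 0) of each of the 10 members in the 22 livers, by genotype and diet, with 1 point per liver and the group mean ± SD, and with Cre MCD 3 drawn as a red square in the Ppargc1a panel. Sirt3 and Opa1 sat lower in every Cre MCD liver than in any Cre chow liver, Ucp2 sat higher, and Ppargc1a was highest in liver-Flcn-/- mice on MCD, with a mean of 40.9 CPM.

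Both coactivators rose on MCD in liver-Flcn-/- mice, and Ppargc1a, but not Ppargc1b, was also called higher in liver-Flcn-/- than in Cre mice on that diet. Ppargc1a (ENSMUSG00000029167, chr5:51454250-51567726, minus strand) encodes PGC-1 alpha. Cre chow livers held 10.5 to 18.5 CPM (median 10.8, n = 6), and Cre MCD livers held 17.2, 13.4, 31.2, 16.1 and 17.7 CPM. The liver-Flcn-/- chow livers held 20.9, 16.6, 19.7, 20.04 and 21.7 CPM, and the liver-Flcn-/- MCD livers held 30.3 to 53.0 CPM (median 39.6, n = 6). Every liver-Flcn-/- MCD liver thus lay above every liver-Flcn-/- chow liver, while the genotypes overlapped on MCD through Cre MCD 3 alone (31.2 CPM), which was above the lowest 2 liver-Flcn-/- livers (30.3 and 30.5 CPM).

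Ppargc1a was 2.07-fold higher on MCD than on chow in liver-Flcn-/- mice (log2 1.05, SE 0.21, edgeR adjusted p = 3.14e-04). The exact permutation test over livers, two-sided, gave p = 0.00216, the smallest that 6 against 5 livers allow. On MCD it was 2.14-fold higher in liver-Flcn-/- than in Cre livers (log2 1.10, SE 0.21, edgeR adjusted p = 9.61e-04), and log2 1.35 (SE 0.19, adjusted p = 4.76e-05) without Cre MCD 3. In Cre mice the diet difference was log2 0.55 (SE 0.21, edgeR adjusted p = 0.0257), and without Cre MCD 3 it was log2 0.31 (SE 0.18, adjusted p = 0.155) and not called. It also missed the threshold, at log2 0.50 to 0.51, without Cre chow 1, 2, 5 or 6, at log2 0.45 (adjusted p = 0.0957) with the low mapping share as a term, at log2 0.33 (adjusted p = 0.313) without the 5 chow libraries of low share, and at log2 0.56 (adjusted p = 0.0571) with only the 2 groups compared in the fit. Within Cre livers with more Y-linked RNA than Xist, which include Cre MCD 3 (2 on MCD against 3 on chow), the diet difference in mean log2 CPM was 1.06, and within those with more Xist (3 against 3) it was 0.10. On chow the genotypes differed by log2 0.61 (SE 0.21, edgeR adjusted p = 0.0725), which passed without Cre MCD 3 (log2 0.60, adjusted p = 0.0283) or Cre chow 3 (log2 0.73, adjusted p = 0.0336). It passed as well by DESeq2 (log2 0.61, adjusted p = 0.0421), with only the 2 groups compared (log2 0.63, adjusted p = 0.0390) and with library totals (log2 0.75, adjusted p = 0.0195), and it was log2 0.35 (adjusted p = 0.608) without the 5 chow libraries of low share. The interaction was log2 0.49 (SE 0.29, edgeR adjusted p = 0.315), and 0.74 (SE 0.25, adjusted p = 0.0620) without Cre MCD 3, so a different diet response by genotype was not called. Markers of other cells differed between the same groups. On MCD 6 of 9 stellate cell genes (4 without Cre MCD 3 or with the replicate block) were lower in liver-Flcn-/- than in Cre livers. Of 14 macrophage genes 4 were lower and 1 was higher. Of 6 cholangiocyte genes 2 were higher and 4 were not called, and the median log2 difference of the 6 was -0.43. Their sum had a median of 134 CPM in Cre MCD and 124 CPM in liver-Flcn-/- MCD livers. All 10 skeletal muscle genes were lower with Cre MCD 3 included. Over the 11 MCD livers, Cre MCD 3 included, Ppargc1a had a correlation of 0.77 with the log2 sum of 7 endothelial genes, -0.68 with that of the neutrophil genes and -0.43 with that of the stellate cell genes (0.03, 0.31 and 0.33 over the 22 livers). With the macrophage sum the correlation of Ppargc1a was -0.46 over the MCD livers (-0.09 over the 22 livers). With the hepatocyte sum it was -0.24 over the MCD livers (-0.60 over the 22 livers). The part of these cells in the Ppargc1a difference was not tested.

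Ppargc1b (ENSMUSG00000033871, chromosome 18) encodes PGC-1 beta, the relative linked to lipid synthesis in liver. It rose on MCD in both genotypes. Its levels were 4.06 to 7.86 CPM on chow (median 4.84, n = 6) and 8.96, 7.45, 9.36, 8.19 and 10.3 CPM on MCD in Cre mice. The liver-Flcn-/- livers held 8.0, 6.11, 5.03, 3.58 and 3.77 CPM on chow and 7.09 to 13.6 CPM on MCD (median 9.58, n = 6). Chow and MCD livers overlapped slightly in each genotype. The diet differences were 1.61-fold in Cre mice (log2 0.68, SE 0.21, edgeR adjusted p = 0.00958) and 1.92-fold in liver-Flcn-/- mice (log2 0.94, SE 0.22, edgeR adjusted p = 0.00140), and both kept their call with any 1 liver left out. Between genotypes Ppargc1b was not called, with a 95% interval of the log2 difference of -0.50 to 0.37 on chow and of -0.22 to 0.60 on MCD.

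Calls for the DNA-binding partners depended on the scaling. Nrf1 (ENSMUSG00000058440, chr6:30047988-30153458, plus strand) was not called in any comparison with TMM factors, whereas with library totals it rose on MCD in Cre mice (log2 0.61, edgeR adjusted p = 1.86e-04) and in liver-Flcn-/- mice (log2 0.35, adjusted p = 0.0210). Its group means were 9.79 ± 1.37, 11.1 ± 1.72, 9.74 ± 1.18 and 10.4 ± 0.965 CPM (SD) in Cre chow, Cre MCD, liver-Flcn-/- chow and liver-Flcn-/- MCD, and all 4 groups overlapped. The 95% interval of its genotype difference on MCD was log2 -0.32 to 0.13. Gabpa (ENSMUSG00000008976, chr16:84834925-84863779, plus strand) encodes the DNA-binding subunit of GABP and overlaps Atp5j on the opposite strand, and since the strand setting of the counting was not given in the sources used here, reads of the pair cannot be told apart. Gabpa was 36.2 to 47.6 CPM in Cre chow livers (median 40.9, n = 6) and 33.2, 32.5, 34.8, 26.1 and 35.0 CPM in Cre MCD livers, with no overlap. It fell in Cre mice on MCD by log2 -0.35 (SE 0.14, edgeR adjusted p = 0.0396), but the call ended without any 1 of Cre chow 3, 5 or 6 or Cre MCD 1, 2 or 4 (log2 -0.36 to -0.28), as it did with no filter, at a mean count of at least 50, with the replicate block, with the mapping term or without the 5 chow libraries of low share (log2 -0.35 to -0.31), and the sign turned (0.07) when libraries were scaled by their totals alone. The liver-Flcn-/- livers ranged from 29.4 to 48.1 CPM on chow and from 24.8 to 44.4 CPM on MCD and was not called.

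Scaling matters for every diet result of modest size. With library totals alone in place of TMM factors, a choice added after the data were seen, the median log2 difference of all genes on MCD moved to 0.43 in Cre and to 0.27 in liver-Flcn-/- mice, and the median between genotypes moved to 0.12 on chow and -0.02 on MCD. A fall of less than those medians changes sign with that choice. Over all 14062 genes tested, 7896 rose and 1752 fell on MCD in Cre mice with library totals. In liver-Flcn-/- mice 5800 rose and 1733 fell, and the counts of gene lists with library totals stand beside these. All differences given are relative to the bulk of genes unless library totals are named. In whole liver, fewer cells of a type and less RNA per cell cannot be told apart.

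Of the 3 members that act on mitochondrial DNA, Polg differed most between genotypes on MCD. Polg (ENSMUSG00000039176, chr7:79446231-79466362, minus strand, overlapping Fanci on the other strand) was 46.6 to 56.1 CPM in Cre chow livers (median 48.0, n = 6) and 40.8, 43.5, 40.1, 42.3 and 40.3 CPM in Cre MCD livers. The liver-Flcn-/- values were 51.4, 48.8, 49.8, 41.4 and 47.7 CPM on chow and 49.8 to 75.8 CPM on MCD (median 55.3, n = 6). Chow and MCD overlapped in liver-Flcn-/- mice and not in Cre mice. On MCD the lowest liver-Flcn-/- liver lay above the highest Cre liver, which 8.61% of all genes tested showed in one direction or the other, and Polg was the only member to do so. Polg fell on MCD in Cre mice (log2 -0.26, SE 0.09, edgeR adjusted p = 0.0155), although with library totals its sign turned (log2 0.16) and the call ended, at log2 -0.24 to -0.20, with no filter, with the mapping term or without the 5 chow libraries of low share, and it rose on MCD in liver-Flcn-/- mice (log2 0.29, SE 0.09, edgeR adjusted p = 0.0109). On MCD it was 1.41-fold higher in liver-Flcn-/- than in Cre livers (log2 0.50, SE 0.09, edgeR adjusted p = 6.42e-04, exact permutation p = 0.00216, the smallest possible). The interaction was log2 0.55 (SE 0.13, edgeR adjusted p = 0.0102), and with any 1 liver left out it ranged from 0.46 to 0.59 with its call kept. Over the 11 MCD livers Polg had a correlation of -0.76 with the stellate cell sum, -0.54 with the macrophage sum and 0.53 with the endothelial sum (-0.50, -0.44 and 0.09 over the 22 livers), and the part of these cells in the Polg difference was not tested.

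Tfam (ENSMUSG00000003923, chr10:71225464-71238280, minus strand) encodes the factor that packages mitochondrial DNA and starts its transcription. Its range over all livers was narrow. Cre chow livers held 57.4 to 67.3 CPM (median 60.5, n = 6) and Cre MCD livers held 51.5, 48.9, 52.2, 53.1 and 59.6 CPM. The liver-Flcn-/- livers held 57.9, 57.4, 55.5, 59.5 and 54.7 CPM on chow and 54.3 to 67.4 CPM on MCD (median 59.7, n = 6). The groups overlapped, with Cre MCD 5 inside the chow range. Tfam fell on MCD in Cre mice (log2 -0.21, SE 0.07, edgeR adjusted p = 0.00858), but with library totals it rose (log2 0.20, adjusted p = 0.0148) and with no filter it was not called (log2 -0.19, adjusted p = 0.0957). On MCD it was higher in liver-Flcn-/- mice by log2 0.20 (SE 0.07, edgeR adjusted p = 0.0418), a call that ended without any 1 of Cre MCD 1, 2, 3 or 4 or liver-Flcn-/- MCD 1, 3, 4 or 5 (log2 0.17 to 0.21), and in 5 other fits (log2 0.18 to 0.21), library totals among them. With library totals the Tfam interaction was log2 0.15 (adjusted p = 0.379), and it also missed the threshold, at log2 0.27 to 0.36, with no filter on low counts, at a mean count of at least 50, with the replicate block and without the 5 chow libraries of low mapping share. As fitted with TMM factors (log2 0.31, SE 0.09, edgeR adjusted p = 0.0411) it was lost in 15 of the 22 fits with 1 liver left out, at log2 0.28 to 0.32: without Cre chow 2, 3 or 4, Cre MCD 1, 2, 3 or 4, liver-Flcn-/- chow 2, 3, 4 or 5, or liver-Flcn-/- MCD 1, 3, 4 or 5.

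Tfb2m (ENSMUSG00000026492, chr1:179528055-179546267, minus strand), the partner of TFAM that opens the mitochondrial promoter, rose in liver-Flcn-/- mice on MCD. It was 8.32, 7.12, 9.52, 7.05 and 7.32 CPM in liver-Flcn-/- chow livers and 9.07 to 10.6 CPM in liver-Flcn-/- MCD livers (median 9.75, n = 6), where only liver-Flcn-/- chow 3 reached into the MCD range. The difference was 1.25-fold (log2 0.32, SE 0.10, edgeR adjusted p = 0.0117). Cre livers ranged from 7.11 to 9.05 CPM on chow and from 7.41 to 9.68 CPM on MCD (log2 0.02, SE 0.10, edgeR adjusted p = 0.902), although with library totals Tfb2m rose in them too (log2 0.44, adjusted p = 7.12e-04). The difference between these diet responses was not called (interaction log2 0.31, SE 0.14, edgeR adjusted p = 0.181), and a rise in one genotype alone is therefore not shown.

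Sirt3 and Opa1 fell on MCD in both genotypes and fell further in Cre mice. Sirt3 (ENSMUSG00000025486, chr7:140863666-140882309, minus strand, overlapping Ric8a and Psmd13 on the other strand) encodes the main deacetylase of the mitochondrial matrix. It was 68.1 to 102 CPM in Cre chow livers (median 81.0, n = 6) and 35.7, 34.3, 45.6, 42.2 and 37.3 CPM in Cre MCD livers. With Flcn lost it was 87.6, 71.7, 61.2, 63.3 and 60.3 CPM on chow and 42.6 to 60.5 CPM on MCD (median 53.8, n = 6). Chow and MCD were far apart in Cre mice and touched in liver-Flcn-/- mice.

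In Cre mice Sirt3 fell on MCD to 0.477 of its chow level (log2 -1.07, SE 0.12, edgeR adjusted p = 1.98e-07). It fell by less in liver-Flcn-/- mice (log2 -0.37, SE 0.12, edgeR adjusted p = 0.0124), a call that ended without liver-Flcn-/- chow 1 (log2 -0.27, adjusted p = 0.0558) or with library totals (log2 -0.11, adjusted p = 0.403). The genotypes on MCD differed by log2 0.44 (SE 0.12, edgeR adjusted p = 0.0122, higher in liver-Flcn-/-), and the interaction was log2 0.70 (SE 0.17, edgeR adjusted p = 0.0137). Both kept their call with any 1 liver left out, while the interaction missed the threshold with the replicate number as a block (log2 0.58, adjusted p = 0.0601). Within livers with more Y-linked RNA than Xist the genotype difference on MCD was 0.18 in mean log2 CPM and within those with more Xist it was 0.64.

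Opa1 (ENSMUSG00000038084, chr16:29579334-29654884, plus strand) encodes the dynamin-related GTPase that fuses inner membranes and shapes cristae. Cre livers held 81.3 to 108 CPM on chow (median 97.4, n = 6) and 53.6, 48.2, 68.3, 53.8 and 54.4 CPM on MCD, with no overlap. The liver-Flcn-/- livers held 80.0, 93.6, 88.3, 79.5 and 91.8 CPM on chow and 55.8 to 81.3 CPM on MCD (median 71.6, n = 6), with overlap. Opa1 fell on MCD to 0.580 of its chow level in Cre mice (log2 -0.79, SE 0.10, edgeR adjusted p = 1.32e-06). Its fall in liver-Flcn-/- mice was log2 -0.29 (SE 0.10, edgeR adjusted p = 0.0230), which was lost without liver-Flcn-/- chow 2 or 5 or liver-Flcn-/- MCD 2 (log2 -0.27 to -0.23), with no filter or with the mapping term (log2 -0.28 and -0.25), and was -0.03 with library totals. On MCD it was 1.28-fold higher in liver-Flcn-/- mice (log2 0.35, SE 0.10, edgeR adjusted p = 0.0195), a call lost without Cre MCD 2 or liver-Flcn-/- MCD 6 (log2 0.30 and 0.31) or with only the groups compared (adjusted p = 0.0604). The interaction of log2 0.50 (SE 0.14, edgeR adjusted p = 0.0315) was lost without Cre chow 1 or 5, Cre MCD 1, 4 or 5, liver-Flcn-/- chow 4 or liver-Flcn-/- MCD 1 or 6 (log2 0.46 to 0.49), and also with library totals (0.34), with no filter (0.48), with the replicate block (0.44) and without the 5 chow libraries of low mapping share (0.36).

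Markers of hepatocytes and of other cells also moved on MCD. Of 8 hepatocyte genes 7 fell in Cre mice (median log2 -0.99) and 6 in liver-Flcn-/- mice (median log2 -0.65), where with library totals 5 fell and 1 rose in Cre mice and 3 fell in liver-Flcn-/- mice. On MCD the hepatocyte sum had a median of 98648 CPM in Cre and 73143 CPM in liver-Flcn-/- livers, while Sirt3 and Opa1 were higher in the latter. The log2 hepatocyte sum had correlations of 0.59 with Sirt3 and 0.60 with Opa1 over the 22 livers. Over the 11 MCD livers these were -0.20 and -0.12. Over the 22 livers the correlation with the log2 sum of the neutrophil genes was -0.81 for Sirt3 and -0.85 for Opa1 (-0.52 and -0.75 over the 11 MCD livers), and with that of the stellate cell genes it was -0.72 and -0.65 (-0.55 and -0.21). With the cholangiocyte sum it was -0.69 and -0.62 (-0.56 and -0.43), and with the endothelial sum 0.54 and 0.51 (0.70 and 0.72). The points share libraries and groups. The group medians of the neutrophil and stellate cell sums stand with Ucp2, and the part of these cells in the Sirt3 and Opa1 differences was not tested.

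Ucp2 went the other way. Ucp2 (ENSMUSG00000033685, chr7:100493337-100502020, plus strand, overlapping Dnajb13 on the other strand) encodes an inner membrane carrier of the uncoupling protein family that is abundant in macrophages and induced in fatty liver. Cre livers held 23.0 to 40.1 CPM on chow (median 28.4, n = 6) and 91.4, 80.0, 55.1, 113 and 89.0 CPM on MCD. The liver-Flcn-/- livers held 36.1, 41.9, 42.1, 78.4 and 47.3 CPM on chow and 41.7 to 67.0 CPM on MCD (median 51.2, n = 6). Every Cre MCD liver lay above every Cre chow liver, while the liver-Flcn-/- diets overlapped almost wholly.

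Ucp2 rose 2.82-fold on MCD in Cre mice (log2 1.50, SE 0.20, edgeR adjusted p = 2.53e-06). In liver-Flcn-/- mice the diet difference was log2 0.13 (95% interval -0.27 to 0.52, edgeR adjusted p = 0.631), and in mean log2 CPM it was 0.55 within livers with more Y-linked RNA and -0.14 within those with more Xist. The interaction, log2 -1.37 (SE 0.28, edgeR adjusted p = 0.00556), was the largest in size among the members and kept its call with any 1 liver left out. On chow Ucp2 was higher in liver-Flcn-/- mice (log2 0.70, SE 0.20, edgeR adjusted p = 0.0344), the only member called there. That call ended without liver-Flcn-/- chow 4 (log2 0.46, adjusted p = 0.168), without liver-Flcn-/- chow 5, or without Cre chow 1, 2, 5 or 6 (log2 up to 0.71), and also by limma-voom (log2 0.66, adjusted p = 0.0502), with only the groups compared (0.72, adjusted p = 0.0555) or without the 5 chow libraries of low share (0.65, adjusted p = 0.204). On MCD it was lower in liver-Flcn-/- mice (log2 -0.67, SE 0.20, edgeR adjusted p = 0.0237), which was lost without Cre MCD 1 or 4 or liver-Flcn-/- MCD 1, 3 or 6 (log2 -0.65 to -0.55).

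Markers of other cell types moved with Ucp2. The 14 macrophage genes, led by Cd5l, summed to medians of 563, 739, 666 and 500 CPM in Cre chow, Cre MCD, liver-Flcn-/- chow and liver-Flcn-/- MCD livers, and in Cre mice on MCD 8 of them rose and 2 fell. On MCD 4 of the 14 were lower and 1 was higher in liver-Flcn-/- than in Cre livers. The 6 neutrophil genes, led by S100a9, summed to medians of 5.02, 28.8, 5.40 and 18.4 CPM, and the 9 stellate cell genes, led by Dcn, to 340, 637, 404 and 419 CPM. Over the 22 livers Ucp2 had a correlation of 0.44 with the macrophage sum, 0.72 with the neutrophil sum, 0.75 with the stellate cell sum and 0.68 with the cholangiocyte sum on the log2 scale (0.74, 0.78, 0.42 and 0.49 over the 11 MCD livers), where the points share libraries and groups. The part of these cells in the Ucp2 difference was not tested.

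**Figure D2:**
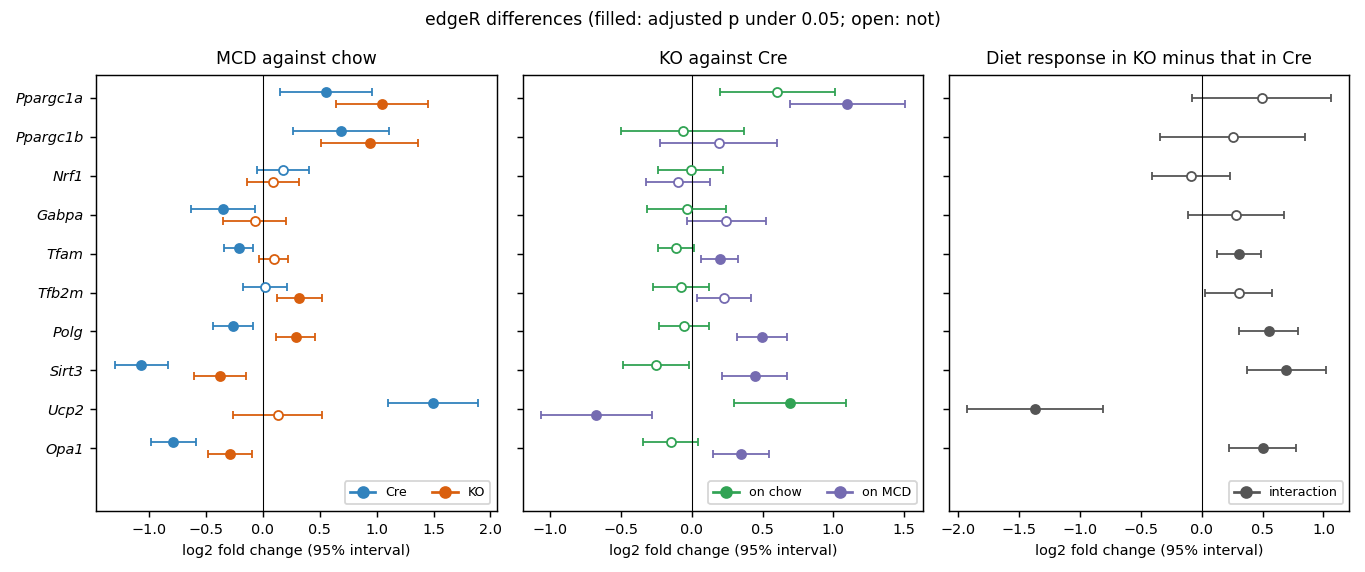
Log2 difference of each member with its approximate 95% interval for diet within each genotype, for genotype on each diet, and for the interaction, with filled points for an edgeR adjusted p under 0.05. In the interaction panel Ucp2 lies at -1.37, and Tfam, Polg, Sirt3 and Opa1 lie between 0.31 and 0.70.

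Per kilobase of exon, Tfam, Sirt3 and Opa1 were the most abundant members in Cre chow livers, at 13.9 ± 0.810, 13.7 ± 1.91 and 12.2 ± 1.18 CPM per kb (mean level ± SD, n = 6), whose spreads overlapped. Gabpa followed at 7.26 ± 0.808, and Polg (4.62 ± 0.353) and Ucp2 (4.34 ± 0.964) did not differ beyond their spread. Tfb2m was at 2.96 ± 0.288, and the lowest levels were those of Ppargc1a (1.97 ± 0.539), Ppargc1b (1.38 ± 0.398) and Nrf1 (0.952 ± 0.133 CPM per kb). In liver-Flcn-/- MCD livers the order differed in that Ppargc1a had a mean level of 6.21 ± 1.53 CPM per kb, close to Gabpa (6.74 ± 1.32) and Polg (5.44 ± 0.851), and Ucp2 (7.70 ± 1.58) lay above both in mean level, within the spread of Gabpa. Sirt3 (8.89 ± 1.18) and Opa1 (9.02 ± 1.23) were below Tfam (13.7 ± 1.09 CPM per kb) beyond their spread, while Ppargc1b (2.53 ± 0.638) and Nrf1 (1.01 ± 0.0939) stayed at the foot. In Cre MCD livers Ucp2 (12.3 ± 3.02) and Tfam (12.0 ± 0.892 CPM per kb) were highest. Exon lengths were those of all annotated isoforms joined, which need not be those used in liver.

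Members differed in how they followed each other from liver to liver. On log2 CPM over 22 livers the correlation of Sirt3 with Opa1 was 0.82, of Ucp2 with Opa1 -0.86 and of Sirt3 with Ucp2 -0.83, as the scatter of Sirt3 against Ucp2 shows. With group means removed these were 0.04, -0.57 and -0.35, so the first rested on differences between groups. Ppargc1a and Ppargc1b had a correlation of 0.56, and of 0.15 with group means removed. Gabpa and Opa1 kept a similar value, 0.69 and 0.66. These are descriptions over livers that share groups, library size and composition.

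**Figure D3:**
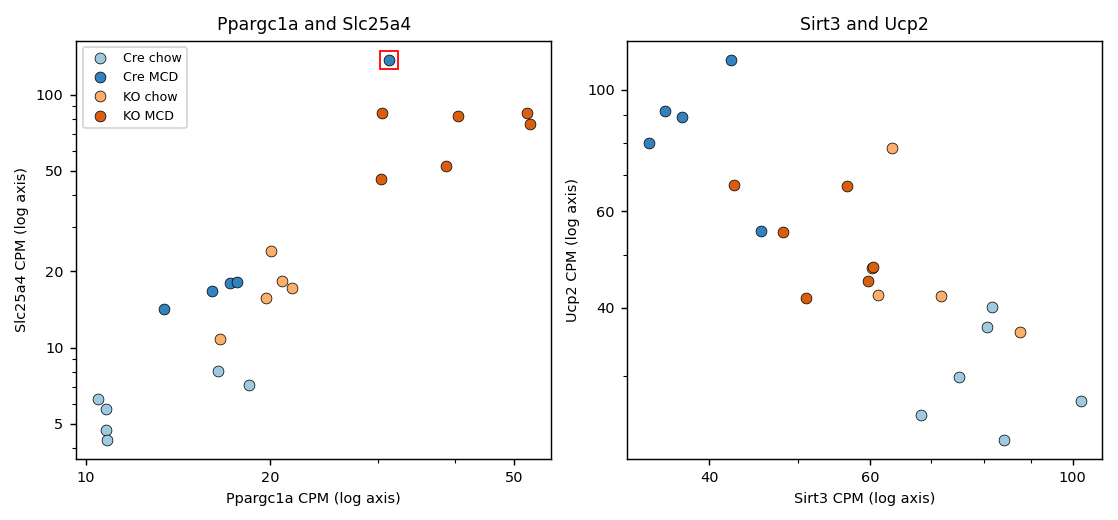
Levels in CPM (log axes) of Ppargc1a against Slc25a4 and of Sirt3 against Ucp2, with 1 point per liver by genotype and diet and Cre MCD 3 as a red square in the Slc25a4 plot. Slc25a4 was 137 CPM in Cre MCD 3 and 46.4 to 84.8 CPM in liver-Flcn-/- MCD livers, and Cre MCD livers lie at low Sirt3 with high Ucp2.

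The gene most like Ppargc1a over the 22 livers, by Pearson correlation of log2 CPM among all genes tested, was Slc25a4 (r = 0.91, and 0.93 without Cre MCD 3), which encodes the adenine nucleotide carrier of heart and muscle. Slc25a4 was 4.33 to 8.08 CPM in Cre chow livers. In Cre MCD livers it was 18.1, 14.2, 137, 16.8 and 18.2 CPM, in liver-Flcn-/- chow livers 18.4, 10.9, 15.7, 24.1 and 17.3 CPM, and in liver-Flcn-/- MCD livers 46.4 to 84.8 CPM. Apart from Cre MCD 3 the genotypes did not overlap on either diet. Without that liver Slc25a4 was higher in liver-Flcn-/- mice by log2 1.51 (SE 0.20, edgeR adjusted p = 3.75e-05) on chow and by 2.09 (SE 0.22, adjusted p = 1.85e-06) on MCD, and with it these were log2 1.51 (adjusted p = 0.0519) and 0.80 (adjusted p = 0.246). Next in likeness to Ppargc1a were Ugp2 (0.90, and 0.89 without that liver) and D7Ertd443e (0.89, and 0.93 without it, marginally above Slc25a4), so the first rank depends on Cre MCD 3. Ppargc1b was most like Maf1 (0.91), a repressor of RNA polymerase III, followed by Pnpla2 (0.89), the adipose triglyceride lipase, and Fbxo21 (0.88).

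For the other members the most similar genes were Rtn4rl1, Hadh and Acat1 (0.77) for Tfam, Aven (0.83), Tmem259 (0.82) and Eif2b4 (0.79) for Nrf1, B230219D22Rik, Zfp24 and Ppp3cb (0.88) for Gabpa, and Cul2 (0.91), Cox11 (0.86) and Dnaja3 (0.85) for Tfb2m. Polg was most like 5830473C10Rik (0.86), Hook2 (0.82) and Atp5a1 (0.81), the last a subunit of ATP synthase. Sirt3 was most like Lims2 (0.97), Pbld1 and Btbd2 (0.95), Opa1 like Adk, Cul4a and Aldh6a1 (0.96), and Ucp2 like Mcm6, Mcm5 and Pck2 (0.93), the first 2 of which encode subunits of the helicase that unwinds DNA for replication. Mcm6 was 3.92 to 7.59 CPM in Cre chow, 13.7 to 30.0 CPM in Cre MCD, 6.04 to 13.4 CPM in liver-Flcn-/- chow and 9.12 to 24.9 CPM in liver-Flcn-/- MCD livers, so the genotypes overlapped on each diet and the diets overlapped in liver-Flcn-/- mice only.

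Among the 20 partners and modifiers of PGC-1 that were tested, 5 rose and 8 fell in Cre mice on MCD (7 and 1 with library totals), while 2 were raised and 3 lowered with Flcn lost (6 and 2). Between genotypes edgeR called none on chow (2 at an unadjusted p under 0.05, all lower, and 0 by DESeq2 and limma-voom), and on MCD 1 was higher and 1 lower. Pprc1, the PGC-1 related coactivator, rose in Cre mice on MCD (log2 0.65, SE 0.19), and Ppard, a lipid-sensing nuclear receptor, fell in both genotypes (log2 -1.62 and -1.70). Esrra, the estrogen-related receptor alpha, rose on MCD in Cre mice (log2 0.56) and in liver-Flcn-/- mice (log2 0.82). It was higher in liver-Flcn-/- than in Cre mice there (log2 0.39, edgeR adjusted p = 0.0372), a call lost without Cre MCD 1, 4 or 5 or liver-Flcn-/- MCD 2, 3, 4 or 6 (log2 0.35 to 0.39) or with the replicate block (0.36). Of 7 AMPK subunits and Lkb1 tested, 2 were higher in liver-Flcn-/- mice on MCD: Prkaa2 by log2 0.56 (edgeR adjusted p = 0.00900) and Prkaa1, lost without Cre MCD 4, by 0.41 (adjusted p = 0.0158). Prkab2, a regulatory subunit gene, rose on MCD in both genotypes (log2 0.56 with Flcn lost, a call lost there without the 5 chow libraries of low mapping share), Prkag2 fell in Cre mice (log2 -0.76) and Prkag1 rose in liver-Flcn-/- mice (log2 0.31). Prkaa1 and Prkaa2 encode catalytic subunits, and Prkaa1 was also higher on chow (log2 0.47, edgeR adjusted p = 0.0117, lost without the 5 chow libraries of low mapping share).

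The mitochondrial DNA replication list (13 tested) had 7 genes that fell and 1 that rose in Cre mice on MCD (3 and 4 with library totals), and 4 that fell in liver-Flcn-/- mice (2, and 2 that rose, with library totals). Its accessory polymerase subunit gene Polg2 fell in both (log2 -1.49 and -0.79), unlike Polg, and Dguok, which supplies purine deoxynucleotides, fell in Cre mice (log2 -0.82). Primpol, a primase, fell in liver-Flcn-/- mice (log2 -0.71). Between genotypes on MCD 1 of the 13 was higher and 1 lower in liver-Flcn-/- mice. Dna2, a nuclease of replication, was higher (log2 0.57, edgeR adjusted p = 0.00398), and Exog, a mitochondrial nuclease, was lower (log2 -0.64, edgeR adjusted p = 0.0403), a call lost without Cre MCD 2 or 4 or liver-Flcn-/- MCD 1, 3, 4, 5 or 6 (log2 -0.69 to -0.40) and in 5 other fits. Of 13 genes of mitochondrial transcription and RNA stability tested, 3 rose and 4 fell in Cre mice and 3 rose in liver-Flcn-/- mice on MCD, where with library totals 7 rose and 0 fell in each genotype. Tfb1m, a methyltransferase of mitochondrial ribosomal RNA, rose by log2 0.45 (lost with only the groups compared) and 0.50 (lost without the 5 chow libraries of low mapping share), and Fastkd2 by 0.45 and 0.59. Mterf3 of the transcription list was higher in liver-Flcn-/- than in Cre mice on MCD (log2 0.29, edgeR adjusted p = 0.0101). On chow edgeR called 0 genes of either list between genotypes, as did DESeq2 and limma-voom, and 3 and 1 were lower at an unadjusted p under 0.05.

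Around Opa1, 13 fusion and fission genes were tested, of which 2 rose and 3 fell in Cre mice while with the same diet 7 rose and 2 fell in liver-Flcn-/- mice on MCD (with library totals 9 and 2, and 9 and 1). Mtfp1, a fission gene, fell in both (log2 -1.58 and -0.86), Mief1 fell in Cre mice (log2 -0.71), and Immt, which holds cristae junctions, rose in liver-Flcn-/- mice (log2 0.66). On MCD 4 were higher in liver-Flcn-/- mice, among them Oma1, the protease that cleaves OPA1, by log2 0.35 (lost without Cre MCD 1, 3 or 4 or liver-Flcn-/- MCD 4 or 6, or with the replicate block) and Mff by 0.33. Around Sirt3, 10 mitochondrial sirtuins and their targets had 3 that rose and 6 that fell in Cre mice on MCD (3 and 2 with library totals), and 4 that were higher and 1 lower in liver-Flcn-/- than in Cre mice on that diet. Otc of the urea cycle fell in both genotypes (log2 -2.74 and -2.28), and Cps1 of the same cycle fell in Cre mice (log2 -0.99). Glud1, glutamate dehydrogenase, was lower in liver-Flcn-/- mice on chow (log2 -0.50, edgeR adjusted p = 0.00406). Idh2 was higher in liver-Flcn-/- mice on chow (log2 0.98) and on MCD (0.81), and Acadl, which starts oxidation of long-chain fatty acids, was higher on MCD (log2 0.50, edgeR adjusted p = 8.11e-04).

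Of 6 uncoupling proteins and nucleotide carriers tested, 4 rose on MCD in each genotype, where 29.3% of all genes rose in Cre and 22.5% in liver-Flcn-/- mice. Slc25a5, the adenine nucleotide carrier found in most tissues, rose in liver-Flcn-/- mice (log2 0.98) and was higher in them than in Cre mice on MCD (log2 0.52, edgeR adjusted p = 9.06e-04). Slc25a27 rose in Cre mice (log2 1.07, lost without the 5 chow libraries of low mapping share). Ucp1 was at 0 in 18 livers and at 1 or 2 counts in the other 4, and Ucp3 had 0 or 1 count in Cre chow livers and 26 to 61 counts in liver-Flcn-/- MCD livers, with 30 counts in Cre MCD 3 and 2 to 6 in the other Cre MCD livers, and 24 counts in liver-Flcn-/- chow 1 and 1 to 7 in the other liver-Flcn-/- chow livers. Of 10 mitochondrial import genes, 7 rose on MCD in Cre and 8 in liver-Flcn-/- mice, where 29.3% and 22.5% of all genes tested rose. Among them were the matrix chaperone Hspa9 (log2 0.78 and 1.23) and Timm17a (0.76 and 0.80). Between genotypes edgeR called 0 of the 10 on either diet (on MCD 3 at an unadjusted p under 0.05, 1 by DESeq2 and 2 by limma-voom, and on chow 1, 0 and 0). Of 12 protease and mitophagy genes, 3 rose and 4 fell in Cre mice (7 and 1 with library totals) and 5 rose in liver-Flcn-/- mice on MCD. Lonp1, the matrix protease that degrades TFAM, rose by log2 1.38 and 1.46. Afg3l2, an inner membrane protease, rose in liver-Flcn-/- mice (log2 0.81), and Bnip3, a mitophagy receptor, fell in Cre mice (log2 -1.09). Fundc1, also a mitophagy receptor, was higher in liver-Flcn-/- than in Cre mice on MCD (log2 0.36, edgeR adjusted p = 0.0199), a call lost without Cre MCD 4 or liver-Flcn-/- MCD 6 or with no filter.

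The nuclear markers of mitochondrial content had the largest share called between genotypes on MCD of the 13 pathway lists. Of these 16 genes, 12 were higher in liver-Flcn-/- than in Cre mice on MCD, where 8.06% of all genes tested were. The other 4 were not called, and the median log2 difference of the 16 was 0.36 where the median of all genes was -0.01. The count of higher genes was 13 without Cre MCD 3 and 11 with library totals. In the same comparison 6 of 9 stellate cell genes were lower (fewer without Cre MCD 3 or with the replicate block, as given with Ppargc1a). Of 14 macrophage genes 4 were lower and 1 was higher, and all 10 skeletal muscle genes were lower with Cre MCD 3 included. The part of these cells in the difference was not tested. On chow 1 of the 16, Etfa, was lower (log2 -0.23, lost at log2 -0.23 to -0.20 without Cre chow 2, 3, 4, 5 or 6, Cre MCD 5 or liver-Flcn-/- chow 2, 3, 4 or 5, and in 6 other fits, library totals and the replicate block among them), and the other 15 were not called. Atp5a1 was 857 to 987 CPM in Cre MCD livers and 1246 to 1408 CPM in liver-Flcn-/- MCD livers (log2 0.55, SE 0.07, edgeR adjusted p = 2.75e-05), and Ndufs1 of respiratory complex I differed by log2 0.52 (SE 0.10, edgeR adjusted p = 0.00120). In Cre mice 8 of the 16 fell and 1 rose on MCD, but with library totals 8 rose and 1 fell. With that scaling 7896 of all 14062 genes tested rose and 1752 fell in the same comparison. The direction of that diet change thus depends on scaling. With library totals the 8 of 16 that rose are no larger a share than that of all genes. With TMM factors 8 of 16 fell where 28.2% of all genes tested fell. Sdha of respiratory complex II fell in Cre mice on MCD with TMM factors (log2 -0.62). Of the 16, 8 rose on MCD in liver-Flcn-/- mice, among them Cox4i1 of respiratory complex IV by log2 0.62. The diet response differed between genotypes for 9 of them, and for 4 with library totals, with the replicate block, with no filter on low counts, or without the 5 chow libraries of low mapping share.

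**Figure D4:**
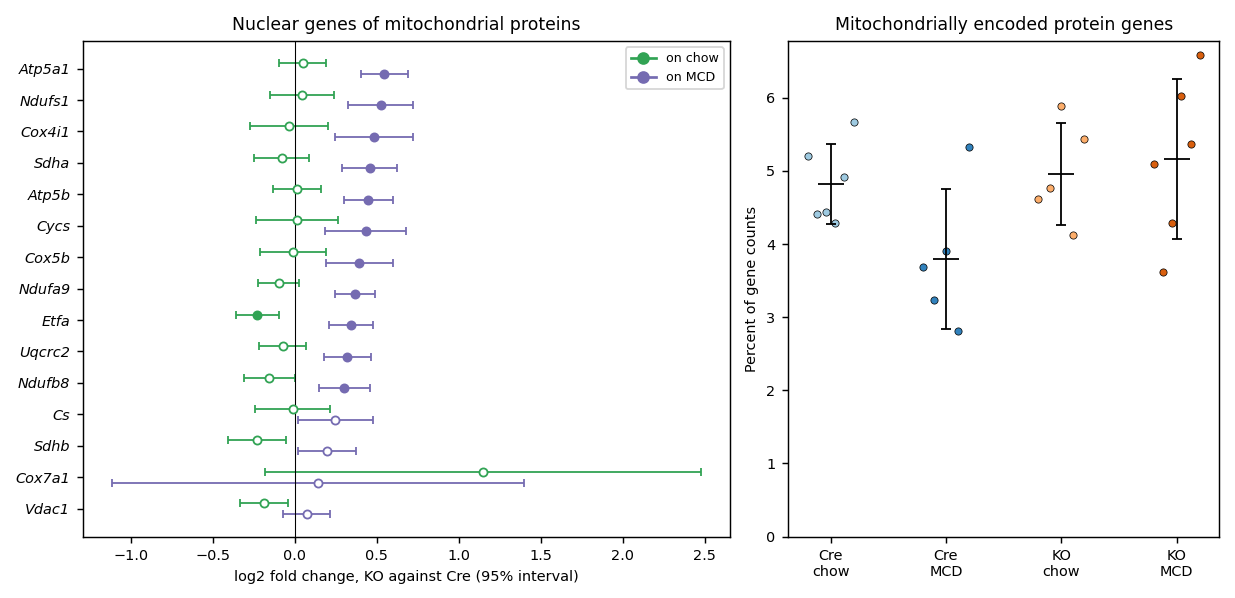
Log2 difference of liver-Flcn-/- against Cre mice for 15 of the 16 nuclear mitochondrial content markers on chow and on MCD, with approximate 95% intervals, and the percent of gene counts on mitochondrially encoded protein genes per liver with the group mean ± SD. Most markers lie near 0 on chow and above 0 on MCD, with Atp5a1 at 0.55, and the percents of the 4 groups overlap.

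Mitochondrially encoded mRNA followed less clearly. Of 13 such protein genes 8 passed the filter on low counts. The 13 together took 4.83 ± 0.545%, 3.79 ± 0.955%, 4.96 ± 0.699% and 5.17 ± 1.09% of gene counts (mean ± SD) in Cre chow, Cre MCD, liver-Flcn-/- chow and liver-Flcn-/- MCD livers. The log2 difference was -0.37 for diet in Cre mice (exact permutation p = 0.0433, 0.117 adjusted over 4 comparisons) and 0.45 for genotype on MCD (exact permutation p = 0.0584, adjusted 0.117), and neither passed. By gene, 6 of the 8 fell in Cre mice on MCD (2 with library totals), mt-Nd2 by log2 -1.49 and mt-Cytb by -1.06, against 1 in liver-Flcn-/- mice (mt-Nd2, log2 -0.81). mt-Nd6 rose on MCD in liver-Flcn-/- mice (log2 0.47). On MCD mt-Nd6 (log2 0.89, SE 0.15, edgeR adjusted p = 3.30e-04) and mt-Cytb (log2 0.57, SE 0.17, adjusted p = 0.0274, lost without Cre MCD 1, 2 or 4 or liver-Flcn-/- MCD 6, or with only the groups compared) were higher in liver-Flcn-/- mice. mt-Nd6 lies on the strand opposite to the others, and without strand in the counting its reads and those of its neighbours cannot be told apart. The table lists several abundant mitochondrial genes, such as mt-Atp6, near 0 (a mean of 0.906 CPM in Cre chow livers), so the share is not that of all mitochondrial mRNA.

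Fasting and clock genes were looked at because Ppargc1a responds to both. Of 12 fasting-responsive genes, 4 rose and 3 fell in Cre mice while with the same diet 5 rose and 2 fell in liver-Flcn-/- mice on MCD (7 and 1, and 8 and 2, with library totals). Fgf21, the fasting hormone of liver, rose by log2 4.33 and 3.50, and it was lower in liver-Flcn-/- than in Cre mice on MCD (log2 -1.59, edgeR adjusted p = 0.0129), a call lost without Cre MCD 2 (log2 -1.02, adjusted p = 0.0773). Cyp4a14, a target of PPAR alpha, rose on MCD in both genotypes (log2 3.94 and 3.95). Tat, tyrosine aminotransferase, was lower in liver-Flcn-/- mice on MCD (log2 -0.90, edgeR adjusted p = 0.0358), lost without Cre MCD 2 or 3 or liver-Flcn-/- MCD 2, 4 or 6 or with the replicate block. Pck1, the gluconeogenic enzyme whose gene PGC-1 alpha is known to activate, was lower in liver-Flcn-/- mice on chow (log2 -0.89, SE 0.27, edgeR adjusted p = 0.0434), a call lost at log2 -0.95 to -0.76 without Cre chow 1, 4, 5 or 6, Cre MCD 1, 4 or 5, liver-Flcn-/- chow 1, 2, 4 or 5, or liver-Flcn-/- MCD 5, and also with no filter, with library totals or without the 5 chow libraries of low mapping share. Of 13 clock genes edgeR called 0 between genotypes on either diet (2 and 1 were lower at an unadjusted p under 0.05 on chow and MCD, DESeq2 called 1 and 0, and limma-voom 0 and 1). Per1 rose on MCD in both genotypes (log2 1.42 and 1.56). Npas2 fell in Cre mice on MCD (log2 -1.49, edgeR adjusted p = 0.0333), lost without Cre chow 1, 2 or 4 or Cre MCD 2, 3 or 4, by limma-voom, with only the groups compared and with library totals, and Clock fell in liver-Flcn-/- mice (log2 -0.39), lost with library totals and without the 5 chow libraries of low mapping share. The mice were fed ad libitum, but the hour of liver collection and any fast before it were not given in the sources used here. The part of either in the Ppargc1a difference was not tested.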

How the data were processed

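Total RNA of mouse liver was made into mRNA libraries with the KAPA kit. Per the labels, the authors processed the reads with bcl2fastq, Trimmomatic, STAR and HTSeq on GRCm38, with versions not given in the sources used here, and deposited 1 table of raw gene counts. Its 22 columns were each matched to a sample by title. Whether molecular identifiers were collapsed and the strand setting of the counting were not given in the sources used here.

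From the deposited counts, the 14062 of 55573 genes whose counts averaged 10 or more per library were kept. Library sizes were scaled by TMM, and 1 model with the 4 groups was fitted by edgeR 4.0.16 (quasi-likelihood, R 4.3.3) over all genes, with Benjamini-Hochberg adjustment and a threshold of 0.05. For likeness and correlation, log2 CPM used a prior count of 2. Single values were compared by an exact permutation test over livers, two-sided. Intervals are approximate and cover the spread between livers, which the labels number as separate samples of a group. No 2 libraries were identical, and within-group Spearman correlations over genes were 0.909 to 0.926. The scripts were tested on simulated data.

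The members, gene lists, motifs and tests were chosen with earlier results of these data known. Named were all members, Flcn, mitochondrially encoded genes and the most abundant gene of the hepatocyte, macrophage, neutrophil and stellate cell marker lists. For each member the 3 genes with the highest correlation of log2 CPM over the 22 livers were named. From each pathway list came the 2 called genes with the largest absolute log2 difference in each comparison and a mean of at least 1 CPM. The values of 2 genes of the lists are not reported here. Ucp1, Ucp3 and Ckm were named after their values were seen. Alternatives were DESeq2 1.42.0, limma-voom (limma 3.58.1), RLE factors, no filter, a mean count of at least 50, only the groups compared, the replicate number as a block, sex read from the counts, the low mapping share as a term or left out, library sizes without mitochondrial genes, each liver left out and, added after the data were seen, library totals only. Positions are those of GENCODE on GRCm38 and promoters those of RefSeq. No protein sequence was used here.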

Additional observations from a re-analysis of the deposited data

Results flagged for a closer look

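In 3 of 44 groups of livers tested, 1 value lay far from the others by Dixon's test, which chance alone gives in about 1 of 20 groups. Ppargc1a was 31.2 CPM in Cre MCD 3, where the nearest of the other Cre MCD livers had 17.7 CPM. That liver also held the muscle RNA described above, and the part of muscle in its Ppargc1a value was not tested. Gabpa was 26.1 CPM in Cre MCD 4, where the nearest had 32.5 CPM. Ucp2 was 78.4 CPM in liver-Flcn-/- chow 4, where the nearest had 47.3 CPM, and the Ucp2 call between genotypes on chow was lost without it.

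The diet response differed between the genotypes, by the interaction term of the edgeR fit, for 5 members, where it did for 8.83% of all genes tested. The difference of log2 responses (liver-Flcn-/- minus Cre) was 0.307 for Tfam, 0.549 for Polg, 0.695 for Sirt3, 0.500 for Opa1 and -1.37 for Ucp2. Those of Polg, Sirt3 and Ucp2 kept their call with any 1 liver left out, and that of Sirt3 was lost with the replicate number as a block (log2 0.58, edgeR adjusted p = 0.0601). Those of Tfam and Opa1 were lost without any 1 of several livers, as given with their values. Both were also lost with library totals, with no filter, with the replicate block and without the 5 chow libraries of low share.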

How the results depend on the processing

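Counts of members called moved as follows. For diet in Cre mice (8) the count was 5 with no filter, with the low uniquely mapped share as a term, and without the 5 chow libraries of low share, and 6 to 8 with 1 liver left out. For genotype on chow (1) it was 0 by limma-voom and without those 5 libraries, 2 by DESeq2 and with library totals only, and 0 to 2 with 1 liver left out. For the interaction (5) it was 3 with no filter, without the 5 libraries and with library totals, and 3 to 5 with 1 liver left out. The other counts stayed at 5 to 6 (diet in liver-Flcn-/- mice) and 4 to 6 (genotype on MCD) with 1 liver left out. The cause of these moves was not tested.

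The livers were treated as unpaired in the main fit. The mean correlation of same-numbered livers about their group means was 0.0237. It ranged from -0.55 to 0.47 between genotypes on chow and from 0.062 to 0.26 between genotypes on MCD. Between diets it ranged from -0.14 to -0.015 in Cre and from -0.19 to 0.21 in liver-Flcn-/- mice. The mean does not settle whether the numbers pair the livers, since values of opposite sign cancel in it. With the number as a block the interaction count was 2 (Polg and Ucp2), and on chow the genotype difference turned to 0.0076 for Ppargc1b, 0.025 for Nrf1 and 0.0032 for Polg.

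Other signs that turned were those of values near 0, none of them called, except where library totals turned the Cre diet falls of Tfam (0.20), Gabpa (0.067) and Polg (0.16). Library totals also turned the Gabpa diet value in liver-Flcn-/- mice (0.19), the Flcn diet value in Cre mice (0.30), and on chow the genotype values of Ppargc1b (0.085), Tfam (0.038), Nrf1 (0.14), Gabpa (0.11), Tfb2m (0.072), Polg (0.094) and Opa1 (2.46e-04). On chow Nrf1 was 0.020 with no filter, 0.014 at a mean count of 50, 0.0175 with only the groups compared and 0.0077 with the mapping term, and Gabpa was 0.050 without the 5 libraries. Ucp2 for diet in liver-Flcn-/- mice was -0.052 with the mapping term and -0.055 without the 5 libraries. With 1 liver left out the genotype value on chow ranged from -0.25 to 0.061 for Ppargc1b, -0.051 to 0.044 for Nrf1 and -0.11 to 0.060 for Gabpa, and the diet value from -0.17 to 0.026 for Gabpa in liver-Flcn-/- mice, -0.042 to 0.057 for Tfb2m in Cre mice and -0.26 to 0.012 for Flcn in Cre mice.

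The mitochondrially encoded share, as a log2 difference, ranged with 1 liver left out from -0.50 to -0.27 (diet in Cre), -0.035 to 0.14 (diet in liver-Flcn-/-), -0.027 to 0.10 (genotype on chow) and 0.35 to 0.58 (genotype on MCD), and the second was -0.016 with all mitochondrial genes. It passed only without Cre MCD 5 (diet in Cre -0.50, genotype on MCD 0.58). Nrf1, Tfb2m and Ppargc1b had the fewest counts, 55 to 317 per library, and the 95% interval of the Ppargc1b genotype difference on MCD ran from log2 -0.22 to 0.60.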
